A study of Drosophila melanogaster with 84 samples.

Results

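Light-phase and dark-phase fat body libraries of wild-type flies kept at 25°C were compared here, 12 libraries against 12, which is 24 of the 84 libraries of the series. The libraries were chosen by their labels: wild type on the 15% sucrose and yeast diet (15% SY, labelled High Calorie) at 25°C on day 5, with ZT02 to ZT12 taken as the light phase and ZT14 to ZT24 as the dark phase (ZT is the time in hours after lights on). Each of the 12 time points had 2 replicates, and each library pooled the abdominal fat tissue of 10 flies, dissected together with the epidermis it is attached to. The study sampled the fly fat body around the day to follow gene expression at different temperatures, diets and genotypes.

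All flies were mated females, about 3 days old when they were moved to 12:12 light-dark cycles. The labels give 5 days of entrainment, and the study's methods give 3 days of entrainment followed by 5 days at the sampling temperature. The wild type was *w1118* (Iso31). Besides the 24 libraries compared, the series has 24 of the same genotype and diet at 18°C, 24 of the same genotype at 25°C on a 5% sucrose and yeast diet (5% SY, the diluted diet), and 12 of *Clk-Jrk* flies, backcrossed to *w1118*, on 15% SY at 25°C, which were sampled at 6 time points. *Clk-Jrk* is a dominant mutation of the clock gene *Clk* carried in every cell, so that it is no model of a fault in the fat body alone. The labels say that a pair of incubators with opposite light schedules was used so that all dissections fell in the daytime, and they do not name the incubator of each library. If light-phase and dark-phase flies came from different incubators, phase and incubator cannot be told apart.

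The fly clock is a transcriptional loop. CLK and CYC, a pair of activating transcription factors, switch on *per* and *tim*, whose proteins enter the nucleus at night and repress CLK and CYC. A second loop runs through *vri* and *Pdp1*, which repress and activate *Clk*, and *cwo* encodes a further repressor. CRY is the blue-light photoreceptor that leads to the breakdown of TIM in the light. The fat body combines the roles of liver and adipose tissue. It stores fat and glycogen, makes yolk proteins and antimicrobial peptides, and holds a clock of its own.

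The tissue carried its own markers, and some libraries also carried those of other organs. The deposited unit is TPM, an abundance corrected for gene length and scaled to the same total in every library. It does not keep the number of reads, and the depth behind each value is therefore unknown. A library had a value above 0 for 12153 to 14040 of the 23932 features of the table. The 12 fat body markers summed to between 47777 and 152312 TPM in the light libraries and between 52531 and 169872 TPM in the dark ones, although *mag* and *Fbp1* had medians under 0.05 TPM. Markers of oenocytes, the hydrocarbon-making cells that lie under the epidermis, summed to between 21464 and 53702 TPM in the light and between 24376 and 55542 TPM in the dark. The 15 ovary markers ranged from 396 to 14309 TPM in the light and from 233 to 12299 TPM in the dark, and the 12 midgut markers from 9.49 to 6977 TPM and from 7.90 to 8636 TPM. The highest ovary sum was that of the light library ZT04 replicate 1, which also had the lowest median correlation with its own phase (0.881), and the highest midgut sum was that of the dark library ZT14 replicate 1. Midgut sums had medians of 28.5 TPM in the light and 82.9 TPM in the dark, and 4 dark and 2 light libraries were over 1000 TPM. For the ovary sums the imbalance was the other way, with 3 light libraries and 1 dark library over 5000 TPM. Fat body sums differed between the replicates, from 47777 to 89933 TPM in replicate 1 and from 80458 to 169872 TPM in replicate 2. The 2 spermatheca markers summed to a median of 0.23 TPM in the light (from 0 to 31.1) and 13.8 TPM in the dark (from 0 to 89.9). None of the markers above the filter described next passed the light-dark test, but 0 of the 12 midgut markers and 0 of the 2 spermatheca markers were above it, so these were not tested. The part of other tissues in the results below was not tested, but the comparison was repeated without the libraries richest in midgut or ovary markers.

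Few transcripts differed between the phases. Of 6909 features with a median above 5 TPM, 10 passed the test (limma on log2(TPM + 1) with the replicate series as a block, adjusted *p* below 0.05), which is 0.145%. *tim*, *CAH1*, *CG34054*, *CG18609* and *lncRNA:CR44298* rose in the dark (5 features, 0.0724%), and *cry*, *Zw*, *CG42668*, *CG17562* and *CG17560* were higher in the light (5 features, 0.0724%). The direction of all 10 was the same in either replicate series, which is no separate support because both series entered the call. With either series alone no feature passed. The count of 10 was 3 without the block (*tim*, *CAH1* and *lncRNA:CR44298*) and 1 after scaling by the median of ratios (*CG42668*). *CG11275* (0.52) and *CG34180* (0.89), both higher in the dark, lay just outside the threshold, each with an adjusted *p* of 0.0543. In a tissue sample, fewer cells of a type and less RNA in each cell cannot be told apart. An unadjusted *p* below 0.05 was found for 390 features (5.64%), of which 241 were higher in the dark (3.49%) and 149 higher in the light (2.16%). The median log2 difference over all features, dark minus light, was -0.052, and 34.5% of the features had a positive difference. In no feature were the 12 libraries of one phase all above the 12 of the other, so every gene named here overlapped between the phases. The libraries of a phase were taken at 6 different times and are treated as replicates by the test, so its *p*-values measure the spread over time as well as that between replicates.

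**Figure D1:**
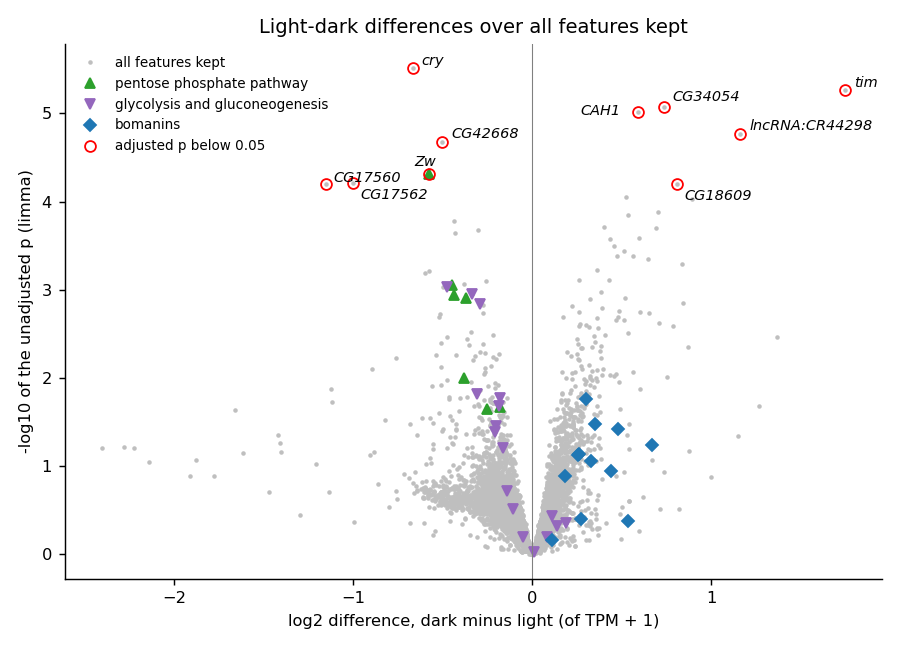
Each point is 1 of the 6909 features, with its log2 difference (dark minus light, of TPM + 1) on the horizontal axis and -log10 of its unadjusted p from limma on the vertical axis. Red rings mark the 10 features with an adjusted p below 0.05, 5 on each side, and coloured symbols mark the members of 3 gene lists. The 7 genes of the pentose phosphate pathway all lie on the light side and the 12 bomanins on the dark side.

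Within the core clock, *tim* was higher in the dark, *cry* was higher in the light, and the other members did not pass. The list held 8 genes, of which 6 were above 5 TPM; 1 was called in each direction. The median difference of these 6 was 0.31, beside -0.052 over all features. *tim* (FBgn0014396, 2L from 3493986 to 3508119 on BDGP6), whose protein partners PER, was at 9.70 TPM in the lowest light library, with a median of 21.8 and a highest value of 73.6, and at 51.2, 82.8 and 126 TPM in the dark libraries. Only the light libraries of ZT10 and ZT12 came near the dark ones. At ZT10 *tim* was at 73.6 and 42.8 TPM, and at ZT12 at 58.5 and 57.1 TPM, while the lowest dark values were those of ZT24 (57.1 and 51.2 TPM). The difference of 1.75 ± 0.30 (log2, standard error) had an adjusted *p* of 0.0166 in limma and was 1.78 in the first series and 1.71 in the second. After scaling by the median of ratios the adjusted *p* was 0.0598. *tim* shares exon bases with *lncRNA:CR46495* and *snoRNA:Or-CD16*, whose reads cannot be told from its own because strand was ignored in the quantification.

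*cry* (FBgn0025680, 3R from 19212154 to 19215442), the photoreceptor of the clock, was at 77.1, 114 and 144 TPM in the light libraries (lowest, median, highest) and at 38.0, 74.1 and 114 TPM in the dark ones. The overlap came in part from the difference between the series, and the phases also overlapped within the first. In the second series every light library (from 123 to 144 TPM) was above every dark one (from 64.6 to 114 TPM), and in the first the dark library ZT24 (80.2 TPM) lay between the light libraries ZT04 (77.1 TPM) and ZT02 (85.0 TPM). The difference was -0.67 ± 0.11 with an adjusted *p* of 0.0166 in limma, which was 0.111 without the block and 0.114 after scaling by the median of ratios. Its lowest mean fell at ZT20, at 38.0 and 64.6 TPM. *cry* shares exon bases with *vib* and *lncRNA:CR46393*.

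*vri*, the repressor of *Clk*, was at 8.41, 15.7 and 49.2 TPM in the light (lowest, median, highest) and at 16.02, 36.4 and 60.7 TPM in the dark, a difference of 0.87 ± 0.28 that did not pass (unadjusted *p* = 0.00450, adjusted *p* = 0.363). The light libraries ranged from 8.41 TPM at ZT02 to 49.2 TPM at ZT12, and the dark ones from 60.7 TPM at ZT18 down to 16.02 TPM at ZT24, so both phases held high and low times. *Pdp1*, the activator of *Clk*, was at 17.4, 26.8 and 42.8 TPM in the light and at 23.7, 41.7 and 61.6 TPM in the dark (0.51 ± 0.15, adjusted *p* = 0.256). *cwo* (0.12, adjusted *p* = 0.800) and *cyc* (-0.17, adjusted *p* = 0.800) were close to the median of all features. The highest *cyc* values, 58.4 and 51.0 TPM, were in the light libraries ZT04 and ZT02 of the first series, which also had the 2 highest ovary marker sums among the light libraries; the part of the ovary in them was not tested.

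*per* and *Clk* were below the filter and were not tested. *per*, the partner of *tim*, was at 1.67, 2.88 and 4.36 TPM in the light (lowest, median, highest) and at 2.66, 4.74 and 7.49 TPM in the dark. Its highest values, 5.01 and 7.49 TPM, were both at ZT18, the time at which *tim* was also highest in both series. *Clk* was at 4.09, 5.23 and 8.31 TPM in the light and at 2.33, 3.38 and 7.28 TPM in the dark, with its lowest mean at ZT16 and its highest at ZT06. The phases overlapped in both genes.

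**Figure D2:**
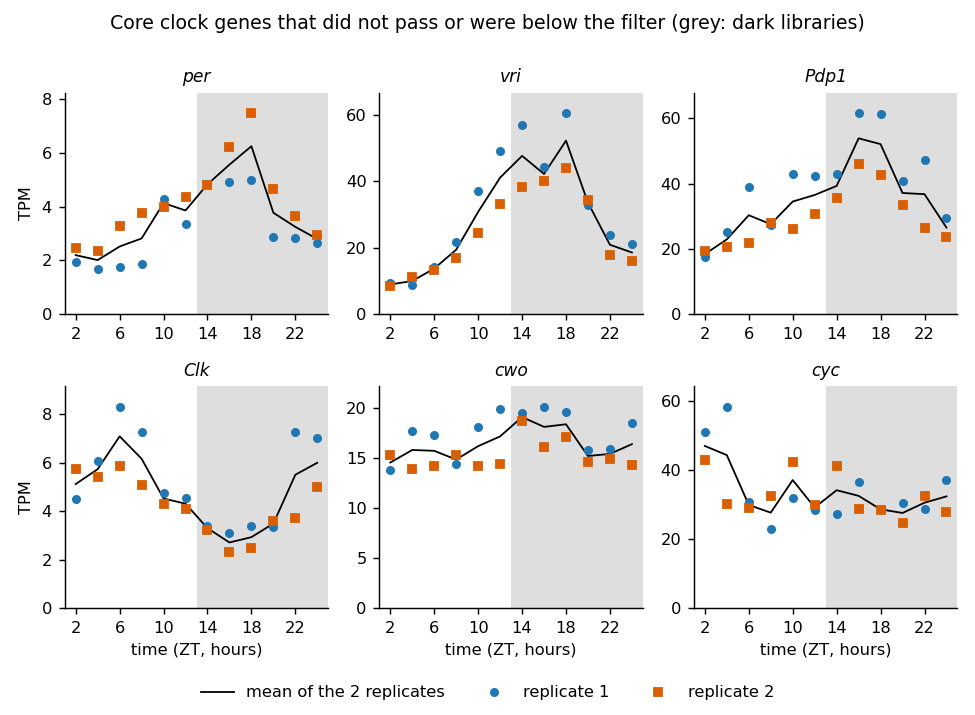
TPM of 6 core clock genes at each time point (ZT, hours) of the wild type on 15% SY at 25°C, with replicate 1 as circles, replicate 2 as squares, their mean as a line and the dark libraries on grey. per and vri have their highest mean at ZT18, Clk its highest at ZT06, and the values of the phases overlap in each of the 6 genes.

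The time points at the ends of the phases bore on these calls. Without ZT12 and ZT24, 18 features were higher in the dark (0.261%) and 7 in the light (0.101%), 25 in all; 9 of the 10 genes were among them and *Zw* was not. *vri* (adjusted *p* = 0.0282) and *Pdp1* (adjusted *p* = 0.0336) then passed with limma, next to *tim* and *cry*. In this reduced set *cry*, *CG42668* and *Got1* (an aspartate aminotransferase, adjusted *p* = 0.0773 with all time points) were the 3 features, 0.0434% of those kept, whose light libraries lay above the dark ones in both series, and 0 features did so in the dark direction.

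Of the reported outputs of the fly clock, 3 of 6 were measured above the filter and none passed. *Smvt*, a sodium-dependent vitamin transporter, was at 14.8, 78.1 and 115 TPM in the light (lowest, median, highest) and at 11.8, 35.3 and 128 TPM in the dark, and its difference of -0.82 had an unadjusted *p* of 0.0300 and an adjusted *p* of 0.798 in limma. With ZT24 taken as light and ZT12 as dark, *Smvt* passed in limma (-1.31, adjusted *p* = 0.0374). *Fmo-2*, a flavin monooxygenase, differed by -0.23, and *Cyp18a1*, which inactivates ecdysone, by 0.10. *to*, *Cyp4d21* and *sxe2* had medians under 1 TPM in both phases. The phases overlapped in all of these genes, although *to* reached 32.7 TPM in the light and only 1.82 TPM in the dark.

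Besides *tim*, 4 transcripts rose in the dark. *lncRNA:CR44298* (2R from 10053095 to 10053393) was at 8.82, 15.3 and 40.7 TPM in the light libraries (lowest, median, highest) and at 20.7, 39.3 and 72.6 TPM in the dark ones. The light library ZT10 replicate 1, at 40.7 TPM, was the only light one above 25 TPM, and the same library also held the highest light value of *tim*, *CAH1* and *CG34054*. The difference was 1.16 ± 0.22 (adjusted *p* = 0.0235). Leaving out 1 of 6 libraries ended this call: light ZT02 replicate 1, light ZT08 replicate 1, and the dark ZT18 and ZT20 of both replicates, with adjusted *p*-values up to 0.0605.

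*CAH1*, a carbonic anhydrase, which interconverts carbon dioxide and bicarbonate, was at 40.9, 47.2 and 69.5 TPM in the light (lowest, median, highest) and at 57.1, 75.7 and 108 TPM in the dark. Without the light ZT10 replicate 1 its highest light value was 60.2 TPM, so that the overlap with the dark libraries was narrow. Its difference was 0.59 ± 0.11 (adjusted *p* = 0.0166), with nearly the same size in the first series (0.60) and the second (0.59). *CAH1* lies on 2L from 13803626 to 13809994 and shares exon bases with *Adat1*. *CG34054* (2R from 11409810 to 11410438) was at 5.85, 11.1 and 19.2 TPM in the light and at 10.9, 19.5 and 29.1 TPM in the dark, a difference of 0.73 ± 0.13 (adjusted *p* = 0.0166). It was lower in the second series than in the first at every time point, in both phases.

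*CG18609* (2R from 18742517 to 18743626), of the family of very long chain fatty acid elongases, was at 189, 345 and 572 TPM in the light (lowest, median, highest) and at 305, 492 and 1383 TPM in the dark. Its highest values stood late in the night, at ZT20 (1383 TPM) and ZT22 (1077 TPM) of the first series, and the second series reached only 654 TPM, at ZT22. The difference was 0.81 ± 0.17 (adjusted *p* = 0.0436). It passed in 6 of the 24 fits that left out 1 library, those without light ZT10 replicate 1 and without either replicate of light ZT12 or dark ZT14 or the first of dark ZT16, and its adjusted *p* reached 0.102 in the others.

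On the light side, a pair of neighbouring fatty acyl-CoA reductase genes moved together. *CG17560* (3R from 16617950 to 16619878) was at 475, 991 and 1651 TPM in the light (lowest, median, highest) and at 231, 363 and 794 TPM in the dark. Its highest values stood at ZT06 (1651 and 1359 TPM) and its lowest in the first part of the night, at ZT14 and ZT16 (from 231 to 318 TPM), and it was back at 791 and 794 TPM at ZT24. The ends of the phases were part of the overlap, as the light ZT12 libraries (475 and 495 TPM) lay below the dark ZT24 ones. Without ZT12 and ZT24 the phases of *CG17560* were still not apart in both series. The difference was -1.15 ± 0.24 (adjusted *p* = 0.0436). *CG17562* (3R from 16615309 to 16617154) was at 96.5, 177 and 326 TPM in the light and at 52.6, 71.2 and 150 TPM in the dark, with the same course, and differed by -0.999 ± 0.21 (adjusted *p* = 0.0436). Fatty acyl-CoA reductases turn fatty acyl-CoA into fatty alcohols. *CG17560* shares exon bases with *mir-2494* and a further annotated feature. Near-identical stretches of the pair could split reads between them, which was not tested. Each passed in 7 of the 24 fits that left out 1 library (without light ZT10 replicate 1, dark ZT16 replicate 1, dark ZT22 replicate 1 or any 1 of the libraries of ZT12 and ZT24), with adjusted *p*-values up to 0.104 and 0.0995 in the others. Without the 6 libraries whose midgut markers summed to over 1000 TPM, *CG17560* differed by -0.89 (adjusted *p* = 0.292) and *CG17562* by -0.74 (adjusted *p* = 0.212). Oenocytes, whose genes make cuticular hydrocarbons, were part of the tissue in both phases, as the marker sums above show.

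*CG42668* (3R from 20309344 to 20324196), of the oxysterol-binding protein family, which carries lipids between membranes, was at 25.7, 30.8 and 37.4 TPM in the light (lowest, median, highest) and at 16.1, 21.2 and 34.7 TPM in the dark. The dark ZT24 libraries (34.7 and 27.6 TPM) were the only dark ones above 24 TPM, and no light library was below 25 TPM. The difference was -0.50 ± 0.09 (adjusted *p* = 0.0243). It lost its call in 8 of the 24 fits without 1 library, those without either replicate of light ZT02, light ZT08, dark ZT18 or dark ZT20, with adjusted *p*-values up to 0.0639.

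**Figure D3:**
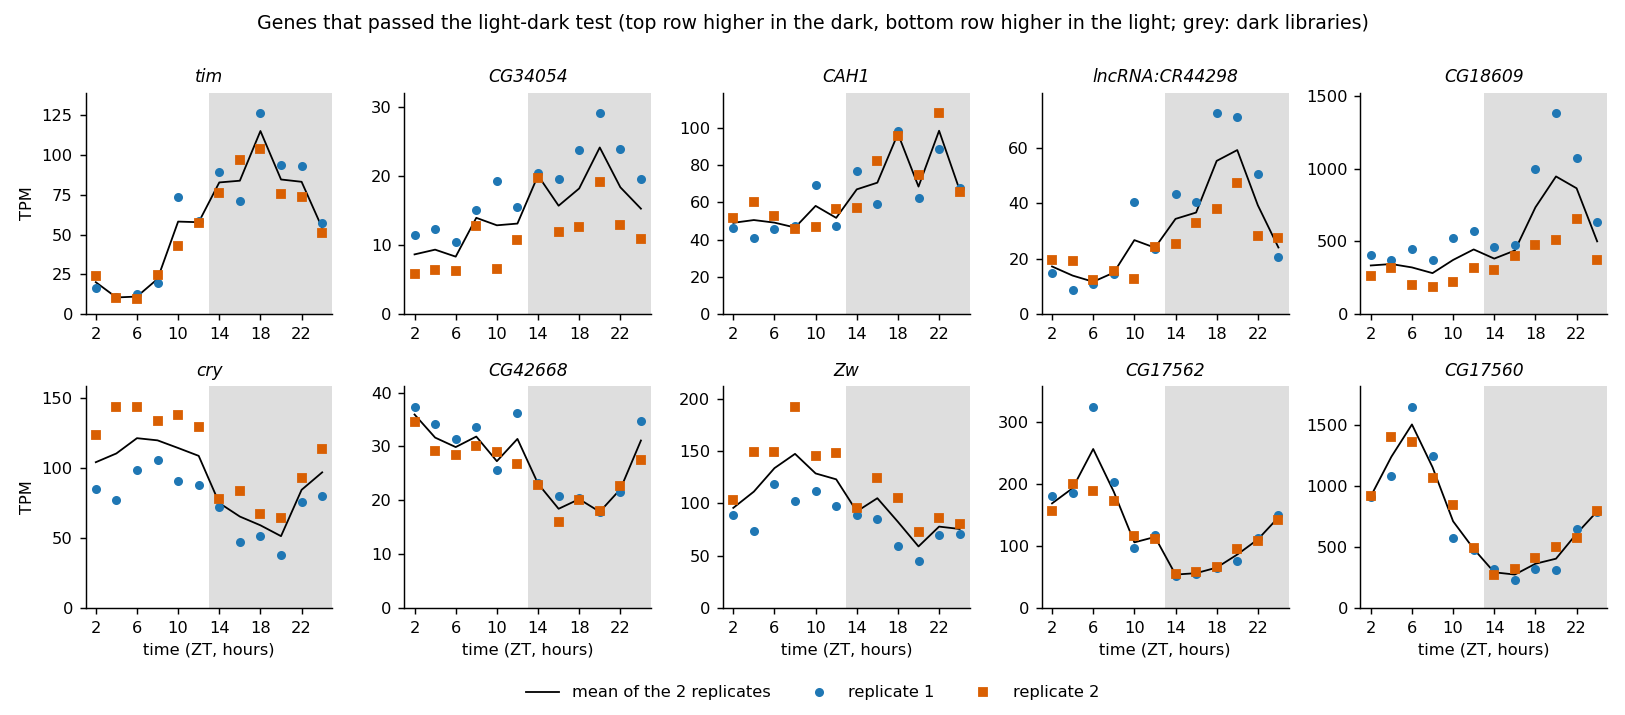
TPM at each time point (ZT, hours) of the 10 genes that passed, with replicate 1 as circles, replicate 2 as squares, their mean as a line and the dark libraries on grey. The top row holds the 5 genes higher in the dark and the bottom row the 5 higher in the light; CG17560 and CG17562 are lowest at ZT14 and ZT16 and climb again before ZT24, and tim climbs before the end of the light phase.

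*Zw* encodes glucose-6-phosphate dehydrogenase, the entry enzyme of the pentose phosphate pathway, which supplies NADPH for fat synthesis and for the defence against oxidants. *Zw* (X from 19667252 to 19672353) was at 73.2, 115 and 192 TPM in the light libraries (lowest, median, highest) and at 45.4, 82.7 and 125 TPM in the dark ones. The dark values were lowest at ZT20 (45.4 and 72.3 TPM). The difference of -0.58 ± 0.12 had an adjusted *p* of 0.0436. It passed in 7 of the 24 fits that left out 1 library, those without light ZT02 replicate 2, light ZT04 replicate 1, light ZT12 replicate 1, dark ZT14 replicate 1, dark ZT22 replicate 1 or either replicate of dark ZT16, and had adjusted *p*-values up to 0.0983 in the others. *Zw* shares exon bases with *asRNA:CR44512* and *et*.

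The other pentose phosphate genes lay on the same side. All 7 genes of the list were above the filter, 1 (*Zw*) was called, and all 7 had a negative difference with an unadjusted *p* below 0.05, beside 149 of 6909 features (2.16%) in that direction. Their median difference was -0.38, beside -0.052 over all features. *Pgd*, 6-phosphogluconate dehydrogenase and the second source of NADPH in the pathway, was at 235, 405 and 634 TPM in the light (lowest, median, highest) and at 170, 311 and 536 TPM in the dark (-0.43 ± 0.12, adjusted *p* = 0.200). *Rpi*, ribose-5-phosphate isomerase, had medians of 138 TPM in the light and 100.015 TPM in the dark (-0.45 ± 0.12, adjusted *p* = 0.174), and *CG8036*, a transketolase, 1112 and 883 TPM (-0.37 ± 0.10, adjusted *p* = 0.204). *Taldo*, transaldolase, differed by -0.38, *CG17333*, a phosphogluconolactonase, by -0.25 and *Rpe* by -0.18. None of the 6 passed and the phases overlapped in all of them. The number with an unadjusted *p* below 0.05 was 4 without the libraries rich in midgut markers, 6 without those rich in ovary markers, 6 after scaling by the median of ratios, 6 with the second series alone and 2 with the first alone, and the differences of all 7 stayed negative in these 5 settings. It was 5 without the block and 4 with ZT24 as light and ZT12 as dark, and with a daily cosine and sine as covariates it was 0, with 2 of the 7 differences positive and a median of -0.050. Here and below, the cosine and sine take up much of the light-dark contrast. That fit measures only a step beyond a smooth daily rhythm, with less precision, and does not test the light-dark difference as a whole.

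Glycolysis, the breakdown of glucose to pyruvate, leaned to the same side with smaller values. All 17 genes of glycolysis and gluconeogenesis were above the filter and none was called. Of these, 8 had an unadjusted *p* below 0.05, all higher in the light, beside 149 of 6909 features (2.16%) in that direction. Of the 17, 12 had negative and 5 positive differences, with a median of -0.16. Over all features 4524 of 6909 were negative. *Pgi*, phosphoglucose isomerase, which stands where glycolysis and the pentose phosphate pathway part, was at 210, 415 and 637 TPM in the light (lowest, median, highest) and at 204, 308 and 414 TPM in the dark (-0.48 ± 0.13, adjusted *p* = 0.175). *Gapdh2* differed by -0.34 ± 0.09 (adjusted *p* = 0.199) and *PyK*, pyruvate kinase, by -0.29 ± 0.08 (adjusted *p* = 0.220). Of the genes of gluconeogenesis, *fbp*, *Pepck1* and *Pepck2* had differences of 0.11, 0.14 and 0.19, none with an unadjusted *p* below 0.05 in limma. *PCB*, also of gluconeogenesis, differed by -0.051. The count of 8 was 3, beside 2 in the dark direction, without the libraries rich in midgut markers. It was 4 without those rich in ovary markers, 4 after scaling by the median of ratios and 2 without the replicate block. It was 0 with the first series alone, and 0 with the cosine and sine, where 6 of the 17 differences were positive.

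Of the genes of fat synthesis and use, none passed. *ATPCL*, ATP citrate lyase, which makes the acetyl-CoA from which fatty acids are built, was at 314, 464 and 632 TPM in the light (lowest, median, highest) and at 239, 347 and 478 TPM in the dark, a difference of -0.43 ± 0.10 (adjusted *p* = 0.0830). The 11 genes of de novo lipogenesis had a median difference of -0.044 with 1 unadjusted *p* below 0.05 in each direction, *ATPCL* in the light and *SCAP* in the dark. The 13 genes of beta-oxidation and the carnitine shuttle had negative differences without exception, but their median of -0.083 was near that of all features (-0.052), and none had an unadjusted *p* below 0.05. Of 9 genes of lipolysis and lipid droplets, the lipase gene *dob* (-0.34, adjusted *p* = 0.306) had an unadjusted *p* below 0.05, and of 9 genes of triglyceride synthesis none did.

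Among the signals that the fat body secretes, *Ilp6*, an insulin-like peptide, had the largest difference. *Ilp6* was at 10.2, 19.2 and 35.0 TPM in the light (lowest, median, highest) and at 21.9, 30.8 and 47.9 TPM in the dark, which is 0.65 ± 0.16 (adjusted *p* = 0.118). Of 16 genes of insulin, FOXO and TOR signalling above the filter, *chico* (0.21), the insulin receptor substrate, and *Rheb* (0.22), an activator of TOR, had an unadjusted *p* below 0.05, both higher in the dark. That count of 2 was 1, beside 2 in the light direction, without the libraries rich in midgut markers. It was 0, beside 1 in the light direction, with ZT24 as light and ZT12 as dark, and 0 with the first series alone. Of 18 autophagy genes, 6 had an unadjusted *p* below 0.05, all higher in the dark (241 of 6909 features, 3.49%, were so). *Atg8a*, whose protein coats autophagosomes, was at 302, 351 and 486 TPM in the light and at 334, 390 and 599 TPM in the dark (0.22 ± 0.08, adjusted *p* = 0.511). The count of 6 was 0 without the libraries rich in midgut markers, 1 with the second series alone and 0 with the first alone. It was 3 without the block, 2 on time point means and 0 with the cosine and sine. With 1 library left out it ran from 1 (without light ZT06, light ZT08 or dark ZT18 of replicate 1) to 7, and was 2 without dark ZT20 or ZT24 of replicate 1 and 3 without dark ZT14 replicate 1 or dark ZT24 replicate 2.

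The bomanins, short secreted peptides made by the fat body under Toll signalling, gave no call. All 12 had a positive difference, as did 34.5% of all features, with a median of 0.31. Of the 12, 3 had an unadjusted *p* below 0.05, beside 241 of 6909 features (3.49%) in that direction. *BomS2* was at 364, 519 and 1787 TPM in the light (lowest, median, highest) and at 425, 836 and 1472 TPM in the dark (0.48 ± 0.22, adjusted *p* = 0.800). *BomS4* (0.30, adjusted *p* = 0.685) and *BomT2* (0.35, adjusted *p* = 0.800) were the others. Without ZT12 and ZT24 the count was 10 of 12 with a median of 0.52, and after scaling by the median of ratios or without the libraries rich in ovary markers it was 0. With the first series alone 9 of the 12 differences were positive, and with the cosine and sine 1 of 12 was, with a median of -0.22 and none at an unadjusted *p* below 0.05. The cosine and sine leave only a step beyond a daily rhythm. With 1 library left out the count of 3 ran from 1 (without light ZT04, dark ZT18 or dark ZT20 of replicate 1, or light ZT02, ZT04 or ZT06 or dark ZT16 or ZT20 of replicate 2) to 8 (without light ZT12 replicate 2), and was 5 or 6 without light ZT10, dark ZT16 or dark ZT24 of replicate 1 or dark ZT22 replicate 2. Of 7 antimicrobial peptide genes above the filter, 4 had positive and 3 negative differences, and 1 had an unadjusted *p* below 0.05. The 11 serpins kept all had positive differences with a median of 0.10, and none had an unadjusted *p* below 0.05.

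Of the detoxification genes, none passed. Of 46 cytochrome P450 genes kept, 26 had positive and 20 negative differences, and 4 had an unadjusted *p* below 0.05 in the dark direction and 1 in the light (3.49% and 2.16% of all features). *Cyp6a20* was at 19.6, 28.0 and 46.9 TPM in the light (lowest, median, highest) and at 31.1, 37.5 and 69.7 TPM in the dark (0.48 ± 0.12, adjusted *p* = 0.115). Of 23 glutathione S-transferase genes kept, 4 had an unadjusted *p* below 0.05, all in the light direction, among them *GstE3* (-0.55) and *GstD1* (-0.40), and 19 of the 23 had negative differences (median -0.14). Over all features 4524 of 6909 were negative. With 1 library left out the count of 4 transferases ran from 2 (without light ZT06, dark ZT18 or dark ZT20 of replicate 1, or light ZT04, dark ZT20 or dark ZT24 of replicate 2) to 7 (without dark ZT16 replicate 2), and with the cosine and sine it was 0, with 19 of 23 differences positive.

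The large housekeeping groups showed no call. None of the 85 cytosolic ribosomal protein genes, 73 mitochondrial ribosomal protein genes, 20 aminoacyl-tRNA synthetase genes, 18 vacuolar ATPase genes or 13 heat shock protein genes had an unadjusted *p* below 0.05. The 61 subunits of oxidative phosphorylation had 2, both in the dark direction, with 50 positive and 11 negative differences and a median of 0.033. The 32 proteasome genes had 1. The yolk and storage proteins gave no call either. *Lsp2*, a larval serum protein, was at 2.81, 51.7 and 289 TPM in the light (lowest, median, highest) and at 0.840, 8.32 and 183 TPM in the dark, so that its difference of -1.42 ± 0.67 was within the spread of the libraries (adjusted *p* = 0.800). *Got1* and *Got2*, the aspartate aminotransferases, differed by -0.44 (adjusted *p* = 0.0773) and -0.52 (adjusted *p* = 0.247).

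On the diluted diet the same 10 genes had the same directions. The 24 libraries of 5% SY are other libraries than those above. Tested alone in the same way, 21 of 6653 features were higher in the dark (0.316%) and 4 in the light (0.0601%), and 9 of the 10 genes were among them; the exception was *Zw* (-0.64, adjusted *p* = 0.167). *tim* was at 9.56, 25.7 and 73.0 TPM in the light (lowest, median, highest) and at 62.3, 106 and 157 TPM in the dark (1.93 ± 0.26, adjusted *p* = 0.000355), and *lncRNA:CR44298* differed by 1.21, *cry* by -0.82 and *CG17560* by -1.18. *Ilp6*, which had missed the threshold on 15% SY, passed there (0.80, adjusted *p* = 0.00823), as did *Cyp6a20* (0.55, adjusted *p* = 0.0363). The light-dark difference itself did not differ between the diets for any of 7000 features in limma (0 at an adjusted *p* below 0.05, 115 at an unadjusted *p* below 0.05, 1.64%). For *tim* the difference between the diets was -0.18 ± 0.41 and for *CG34054* 0.0062 ± 0.21, and the lack of a call does not show that the diets were alike. The smallest *p*-values of the diet comparison belonged to *Prosalpha1*, *CG42271*, *CG13101*, *CG34445* and *CG3437*, each with an adjusted *p* of 0.938. *Prosalpha1*, a proteasome subunit that shares exon bases with *phr*, ranged from 6.66 to 42.8 TPM in the light and from 0 to 14.5 TPM in the dark on 15% SY.

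At 18°C more features differed between the phases, and *tim* was not among them. Of 6816 features, 23 were higher in the dark (0.337%) and 73 in the light (1.07%), and 3 of the 10 genes passed: *cry* (-0.52, adjusted *p* = 0.0377), *Zw* (-0.59, adjusted *p* = 0.0377) and *CG18609* (0.95, adjusted *p* = 0.00968). *tim* at 18°C was at 12.2, 70.7 and 127 TPM in the light (lowest, median, highest) and at 11.9, 53.2 and 114 TPM in the dark, so that both phases covered the whole range of the gene, and its difference was -0.029 ± 0.42. The difference between 25°C and 18°C was 1.77 ± 0.53 for *tim* and 1.44 ± 0.40 for *vri*, with adjusted *p*-values of 0.207 and 0.185, and it did not pass for either. For *lncRNA:CR44298* it was 0.96 ± 0.25 (adjusted *p* = 0.181).

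The light-dark difference differed between 25°C and 18°C in 4 of 7157 features (0.0559%), while 877 (12.3%) had an unadjusted *p* below 0.05. *CG9837* was at 24.3, 56.2 and 84.9 TPM in the light and at 53.2, 86.2 and 141 TPM in the dark at 25°C (lowest, median, highest), and at 59.7, 81.2 and 112 TPM in the light and at 30.5, 55.5 and 87.9 TPM in the dark at 18°C. The phases overlapped at both temperatures, with the dark median higher at 25°C and the light median higher at 18°C. Its difference was 0.69 at 25°C and -0.60 at 18°C, and the difference between them 1.29 ± 0.21 (adjusted *p* = 0.00161). *IP3K1*, an inositol trisphosphate kinase (0.75), *CARPB*, a carbonic anhydrase-related protein (0.68), and *Orct*, an organic cation transporter (0.66), each had an adjusted *p* of 0.0347, and *CG7300* (1.08) did not pass (adjusted *p* = 0.160). In *IP3K1*, *CARPB* and *Orct* the light median was above the dark one at 18°C and below it at 25°C. Tested alone in limma, *CG9837*, *IP3K1*, *CARPB* and *Orct* passed at 18°C, higher in the light (adjusted *p* = 0.0288, 0.0159, 0.0425 and 0.0110). None of them passed at 25°C, where *IP3K1*, *CARPB* and *Orct* differed by 0.14, 0.32 and 0.15 (adjusted *p* = 0.800, 0.478 and 0.800).

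In *Clk-Jrk* flies no feature passed, among them the 9 of the 10 genes that were above the filter there; *tim* was below it and was not tested. The level of a clock target matched the genotype labels: *tim* was at 5.70 TPM or less in each of the 12 *Clk-Jrk* libraries and at 9.70 TPM or more in each of the 24 wild-type ones of 15% SY at 25°C. *Clk* itself was at 3.62 to 5.44 TPM in the light and at 1.56 to 6.88 TPM in the dark libraries of *Clk-Jrk*. Of 6437 features tested alone, 0 were higher in the dark and 0 in the light in limma, with 220 and 385 at an unadjusted *p* below 0.05. After scaling by the median of ratios these were 407 and 84, so the split between the directions depends on the scaling. The *Clk-Jrk* group has 6 libraries a phase against 12 in the wild type, so its test has less power. *cry* stood at a higher level in *Clk-Jrk*, between 145 and 199 TPM in all 12 libraries, where the highest wild-type library on 15% SY at 25°C was at 144 TPM, and its light-dark difference was -0.032 ± 0.10. *CG17560* was at 1501 TPM or more in the *Clk-Jrk* libraries, where the highest wild-type library reached 1651 TPM, with a difference of -0.32 ± 0.10 (adjusted *p* = 0.436).

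**Figure D4:**
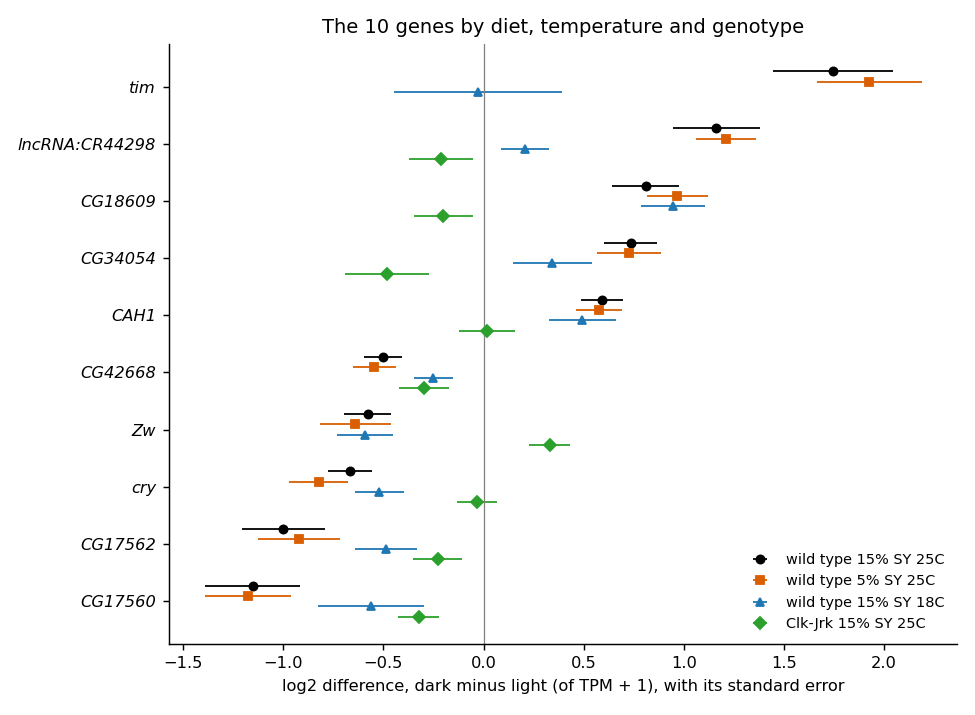
The log2 difference (dark minus light, of TPM + 1) of the 10 genes with its standard error, in the wild type on 15% SY at 25°C, the wild type on 5% SY at 25°C, the wild type on 15% SY at 18°C and Clk-Jrk on 15% SY at 25°C. The points of both diets lie close together in each gene, tim is near 0 at 18°C, and tim has no Clk-Jrk point because its median there was not above 5 TPM.

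Against the wild type of the same 6 time points, 0 of 7093 features passed the test of the difference between genotypes in limma, and 769 (10.8%) had an unadjusted *p* below 0.05. *Blos1*, a subunit of a lysosome biogenesis complex, *CG34054*, *Zw*, *PyK* and *Rpi* had the smallest *p*-values, all with an adjusted *p* of 0.124. *Zw* was at 113, 118 and 137 TPM in the light libraries of *Clk-Jrk* (lowest, median, highest) and at 138, 149 and 188 TPM in the dark ones. The medians stood in the opposite order to the wild type, with a difference of 0.33 ± 0.10 against -0.50 in the matched wild type. Tested alone in limma, the *Clk-Jrk* difference had an adjusted *p* of 0.429. The highest light library (137 TPM) was just under the lowest dark one (138 TPM). How many features separate in this way in *Clk-Jrk* was not counted. *Rpi* was at 55.6, 68.0 and 95.2 TPM in the light and at 93.7, 108 and 143 TPM in the dark in *Clk-Jrk*, where the phases overlapped only narrowly. When all 24 wild-type libraries entered the fit, 7 features passed, with adjusted *p*-values of 0.0230 for *Zw*, 0.0179 for *Rpi*, 0.0239 for *PyK*, 0.0230 for *CG34054* and 0.0190 for *Blos1*.

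As a list, all 7 pentose phosphate genes had negative differences on 15% SY at 25°C, on 5% SY (median -0.44) and at 18°C (median -0.42). At 18°C *Zw*, *Taldo* and *CG8036* were called, beside 73 of 6816 features (1.07%) in that direction. In *Clk-Jrk* all 7 had positive differences (median 0.32, from 0.053 to 0.71, beside -0.091 over all features there). Of these, 5 had an unadjusted *p* below 0.05, beside 220 of 6437 features in that direction, and none was called. In the test of the difference between genotypes 6 of the 7 had an unadjusted *p* below 0.05 in the same direction, beside 259 of 7093 features, and none passed. Of the glycolysis and gluconeogenesis genes, 14 of 16 were negative at 18°C with 5 called, and 13 of 16 were positive in *Clk-Jrk* with none called. Over all features 2568 of 6816 were negative at 18°C, with 73 called in that direction, and 1978 of 6437 were positive in *Clk-Jrk*. After scaling by the median of ratios the pentose phosphate genes kept these directions in all 4 groups. The bomanins, all positive on 15% SY at 25°C, were all negative in *Clk-Jrk* with none called (median -0.42), and there 1 of 12 turned positive after that scaling. On 5% SY and at 18°C 11 and 10 of the 12 were positive, and 6 and 5 after the scaling.

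**Figure D5:**
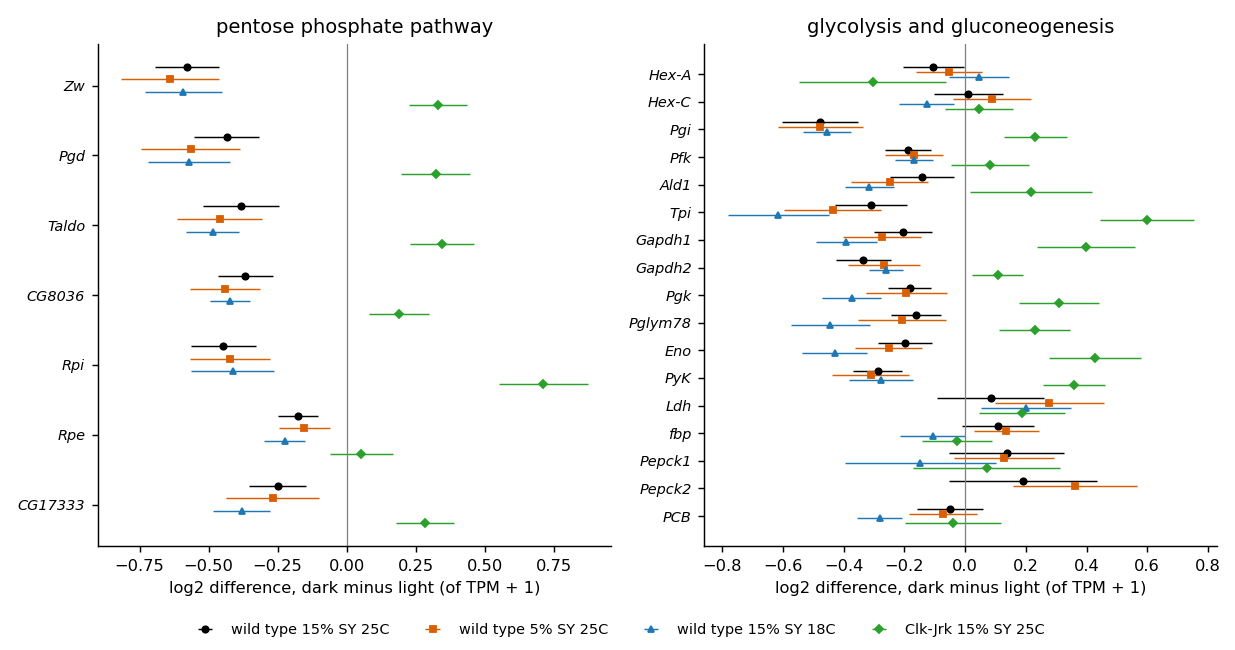
The log2 difference (dark minus light, of TPM + 1) with its standard error for the genes of the pentose phosphate pathway (left) and of glycolysis and gluconeogenesis (right) in the same 4 groups. In the left panel all 7 wild-type points of each group lie below 0 and all 7 Clk-Jrk points above it; of these values only Zw at 25°C and Zw, Taldo and CG8036 at 18°C on 15% SY passed the test in their own group.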

How the data were processed

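The TPM table was made by the authors: reads of poly(A)-selected, single-end libraries were trimmed, aligned with STAR (2.7.10a) and quantified with RSEM (1.3.1) on BDGP6 without regard to strand, and no duplicates were removed. TPM values depend on the whole make-up of a library, so a few abundant transcripts shift all others. Positions and exon overlaps were read from a later Ensembl release of the same assembly, by FlyBase identifier.

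The deposited TPM were analysed as log2(TPM + 1) with limma (3.58.1, R 4.3.3) over features with a median above 5 TPM, with Benjamini-Hochberg adjustment over all of them, a threshold of 0.05 and the replicate number as a block. A fold change on this scale understates the change of low genes. The replicate numbers went together: the difference between the series in the light correlated with that in the dark across features (r = 0.819; features are not independent replicates). Nothing states that replicates were raised separately, so the *p*-values measure the spread between these libraries. The differences between conditions were tested as interactions. The scripts were tested on simulated data.

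Genes were named by rule: all core clock genes and reported clock outputs, the called features of the comparison, the called members of each list with the smallest adjusted *p*, and the 5 smallest *p*-values of each interaction with one direction in both series. *Ilp6*, *ATPCL*, *Got1* and other list members that did not pass were named after their values were seen. The comparison, lists and rules were chosen with earlier results of these data known. Alternatives were another pseudocount, filters, scaling by the median of ratios, an intensity trend, no block, other treatments of time, and libraries or replicate series left out. Leaving out libraries rich in midgut markers (over 1000 TPM) or ovary markers (over 5000 TPM) was added after the data were seen. Promoter motifs were not analysed here. One label text gives the sampling as ZT0 to ZT22, and the times of the sample titles, ZT02 to ZT24, were used.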

Additional observations from a re-analysis of the deposited data

Results flagged for a closer look

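The light-dark difference differed between 25°C and 18°C by the interaction test (limma) in 4 genes: *CG9837* by 1.29, *IP3K1* by 0.75, *CARPB* by 0.68 and *Orct* by 0.66 on the log2 scale (25°C minus 18°C). Tested alone, the 4 genes passed at 18°C as higher in the light (-0.60, -0.61, -0.36 and -0.50). None of them passed at 25°C (0.69, 0.14, 0.32 and 0.15). In *Clk-Jrk*, the light library ZT10 replicate 2 stood apart from the other 5 light libraries in *CAH1*, with 74.1 TPM. It was the 1 such case among 26 groups of 6 libraries checked, and chance gives about 1 in 20.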

How the results depend on the processing

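The count of 10 features was 10 with a pseudocount of 0.1 or an intensity trend. It was 3 without the replicate block, where *tim*, *CAH1* and *lncRNA:CR44298* kept their calls. It was 6 with a filter at 1 TPM, 0 with no filter (809 at an unadjusted *p* below 0.05 in limma), 1 after scaling by the median of ratios (*CG42668*, with 0 in the dark direction and 1 in the light, while *tim* had an adjusted *p* of 0.0598 and *cry* of 0.114), 25 without ZT12 and ZT24, 26 with ZT24 as light and ZT12 as dark, 0 on time point means (235 unadjusted) and 0 with a daily cosine and sine as covariates (71 unadjusted). Either replicate series alone gave 0 (306 unadjusted in the second series, 88 in the first).

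With 1 library left out the count ran from 4 to 23. It was 4 without light ZT02 or ZT08 of replicate 1 or dark ZT18 or ZT20 of either replicate, 5 without light ZT08 replicate 2, 6 without light ZT02, ZT04, ZT06 or ZT10 or dark ZT22 of replicate 2, 15 without light ZT10 replicate 1, 22 without dark ZT16 replicate 1 and 23 without light ZT12 replicate 1. *tim*, *cry*, *CAH1* and *CG34054* passed in all 24 of these fits. Without the libraries rich in midgut markers 14 features passed and without those rich in ovary markers 6, each with 4 of the 10; in the first *tim* and *CAH1* passed and *cry* (adjusted *p* = 0.0773) did not, and in the second *cry* and *Zw* passed and *tim* (adjusted *p* = 0.0718) did not.

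The fit with the cosine and sine measures a step beyond a smooth daily rhythm, not the whole light-dark difference. With the cosine and sine, *cry* (0.044), *Cyp18a1* (-0.014), *Smvt* (0.70), *lncRNA:CR44298* (-0.17), *CG18609* (-0.29) and *CG17560* (0.038) changed sign, as did *Cyp18a1* (-0.10) without the midgut-rich libraries. The 4 features that differed between 25°C and 18°C were 1 without the block, 2 with the median of ratios, 27 without ZT12 and ZT24 and 0 with either series alone. Between genotypes the 0 became 7 with all 24 wild-type libraries and ran from 0 to 1 with a series left out; between diets it stayed 0 in the 8 alternatives run. The median of ratios moved the median over all features from -0.052 to -0.018 in the light-dark comparison (44.8% positive), from -0.10 to 0.0079 in the comparison with 18°C and from -0.10 to 0.014 in that with 5% SY.

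The TPM keep no depth, so the precision of low values is unknown, and 2 libraries a time point do not separate a step at the light transitions from a smooth rhythm.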
